A study of Mus musculus with 16 samples.

Results

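The odorant receptor genes of mouse chromosome 1 were taken as all probe sets of the array whose identifier places them on chromosome 1 and whose symbol is Olfr followed by a number, with 1 probe set per gene. This gave 27 genes of 1080 odorant receptors and of 19572 probe sets that name 1 gene. All 27 lay on chromosome 1 in a RefSeq gene table. The arrays (Clariom S, Affymetrix) measured RNA of sorted cells. These came from olfactory mucosa of mice of the strain S100a5-tauGFP, in which GFP follows the activity-dependent gene S100a5. The 24 mice of both sexes, aged 7 to 12 weeks, were kept singly for 40 h in chambers under a clean air flow of 3.1 L/min. Pulses of 10 s, repeated every 20 min, began at 26 h and carried 2-octanone, a ketone odorant, for 4 pools of 3 mice, and filtered air as vehicle for the other 4 pools of 3. Each pool was sorted into GFP+ and GFP− cells, so the 4 groups were 2-octanone GFP+, 2-octanone GFP−, vehicle GFP+ and vehicle GFP− with 4 arrays each. All values are deposited signals read as log2, and a difference of group means is on the same log2 scale.

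Odorant receptors are G protein-coupled receptors of the olfactory sensory neurons. A mature neuron expresses a single receptor gene from a single allele, so that the RNA of a receptor in a pool of neurons follows the number of neurons that chose it as well as the amount per neuron. The genes lie in clusters of related sequence, where neighbours often belong to the same family. In the assay used here, neurons that respond to the odorant are expected to gain GFP, and the comparison asks which receptors then become enriched among GFP+ cells. In these bulk fractions, fewer neurons with a receptor and less of its RNA per neuron cannot be told apart.

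The 27 genes formed 2 clusters when a gap over 1 Mb between neighbours was taken as a break. The first cluster held 8 genes, 3 of the family MOR103 (Olfr1416, Olfr1415 and Olfr1414) and 5 of MOR208 (Olfr1413, Olfr1412, Olfr1411, Olfr1410 and Olfr12). The second held 19 genes: Olfr16, 8 genes of MOR267, 2 of MOR123, 6 of MOR105 and 2 further genes of MOR103. Olfr16 is also known as MOR23 and responds to lyral, a synthetic floral odorant. The family names come from the synonyms in the RefSeq gene table, and no ligand is given here for the other 26 genes. Olfr16 is also listed there as MOR26713, without the hyphen of the other family synonyms. It was counted outside MOR267 throughout, so its window pairs are among those between families. Probe sequences were not used here, so cross-hybridisation between receptors of a family was not tested.

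Array medians lay between 7.64 and 8.01, and the 23 background probe sets averaged 5.40 to 5.61 per array. Single background probe sets ran from 2.66 to 9.10 over the arrays, so above background means here above their average only. On all 16 arrays 22 of the 27 receptors read above that average. Olfr427 was above it on 0 arrays, Olfr248 on 2, Olfr420 on 10, Olfr231 on 13 and Olfr1411 on 15. Omp, a marker of mature olfactory sensory neurons, read 18.36 to 18.45 in 2-octanone GFP+ cells and 18.35 to 18.43 in vehicle GFP+ cells, against 18.18 to 18.36 and 17.76 to 18.35 in GFP− cells. Both fractions therefore held RNA of mature neurons. S100a5 itself had a GFP+ minus GFP− difference of 0.83 (SE 0.60, limma adjusted p = 0.304), and with the pool as a block it was called (adjusted p = 0.000487). Markers of neutrophils were lower in GFP+ cells for 8 of 8 genes, those of immature neurons for 6 of 6 and those of dividing cells for 4 of 4 measured. The mean level of the neutrophil genes ran from 7.26 to 13.17 in 2-octanone GFP+ cells and from 6.86 to 8.67 in vehicle GFP+ cells, against 15.08 to 16.46 and 15.22 to 16.12 in the GFP− cells. Their part in the receptor differences was not tested.

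Receptors of chromosome 1 separated the GFP+ from the GFP− cells in both directions. Over both exposures limma called 19 of the 27 receptors (70.4%) at an adjusted p under 0.05, 13 higher (48.1%) and 6 lower (22.2%) in GFP+ cells. Among all probe sets tested 30.7% were called, 16.7% higher and 14% lower. Among all odorant receptors 70.7% were called, 44.8% higher and 25.9% lower, so the share on chromosome 1 was close to that of the receptors as a whole. The median difference was 0.43 over the 27 receptors, 0.39 over all receptors and 0.13 over all probe sets. Centring each array on its median moved the median of all probe sets to 0.41 and that of the 27 receptors to 0.70. The calls were then 17 higher and 4 lower, so that the share of higher calls was 81.0%, against 68.4% without centring. The same centring moved that share to 86.4% from 54.4% over all probe sets and to 70.2% from 63.4% over all receptors. Centring subtracts a single value per array, so it moved the differences of all probe sets by the same amount. The change in share therefore measures no shift particular to chromosome 1.

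**Figure D1:**
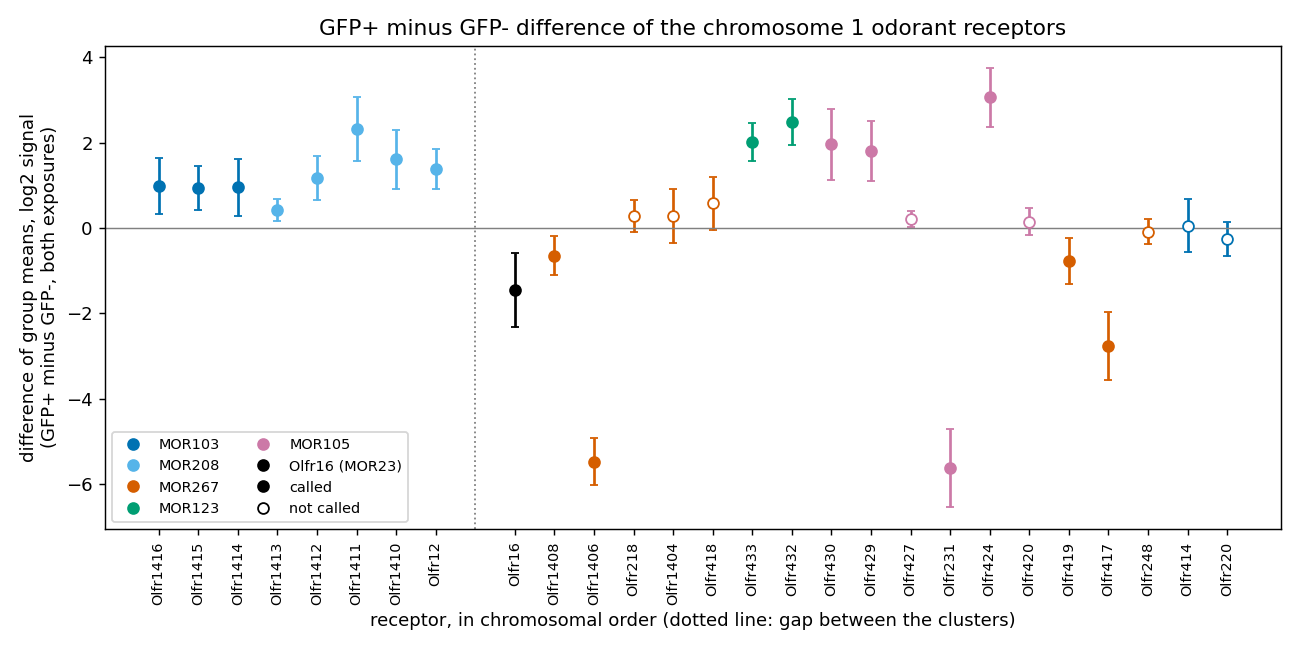
GFP+ minus GFP− difference of group means over both exposures (log2 signal, vertical axis) for the 27 receptors in chromosomal order, coloured by family, with 95% confidence intervals. All 8 receptors left of the dotted line lie above 0, while Olfr1406 and Olfr231 lie below −5.

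All 8 receptors of the first cluster were called higher in GFP+ cells, with a median difference of 1.08. Among all probe sets 16.7% were called higher, and among all receptors 44.8%. Within the exposures, 6 of the 8 were called higher after 2-octanone and 4 after vehicle. No MOR103 gene was called after vehicle. Of all receptors 33.1% and 35.6% were called higher in these exposures, and of all probe sets 5.29% and 7.54%. Olfr1411 differed most in the cluster. It read 9.25, 8.76, 9.11 and 7.29 in 2-octanone GFP+ cells and 9.03, 9.53, 9.68 and 7.99 in vehicle GFP+ cells, against 6.50, 5.54, 6.37 and 5.94 in 2-octanone GFP− cells and 7.61, 7.50, 7.23 and 5.40 in vehicle GFP− cells. Within each exposure the fractions did not overlap, and the replicate 4 pools were the lowest GFP+ samples in both. The difference was 2.32 (SE 0.36, limma adjusted p = 8.46e-05).

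The adjacent gene Olfr1412 had the highest mean of the 27 probe sets. The signal was 14.62, 14.56, 14.62 and 14.27 in 2-octanone GFP+ cells and 14.07, 14.60, 14.45 and 14.19 in vehicle GFP+ cells, against 13.87, 12.91, 13.56 and 13.04 in 2-octanone GFP− cells and 13.84, 13.42, 13.62 and 11.74 in vehicle GFP− cells. The fractions did not overlap, and the lowest GFP− sample was replicate 4 after vehicle. Olfr1412 differed by 1.17 (SE 0.24, adjusted p = 0.00153). The same direction was called for Olfr1410 at 1.61 (SE 0.33, adjusted p = 0.00115) and for Olfr12 at 1.38 (SE 0.22, adjusted p = 0.000113).

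The fifth MOR208 gene, Olfr1413, had a small difference of 0.43 (SE 0.12, adjusted p = 0.0137) at a level near background. It read 6.26, 6.63, 6.55 and 5.99 in 2-octanone GFP+ cells and 6.32, 6.42, 5.94 and 6.19 in vehicle GFP+ cells, against 6.08, 5.78, 5.67 and 5.68 in 2-octanone GFP− cells and 6.23, 5.65, 6.02 and 5.77 in vehicle GFP− cells. The fractions overlapped in both exposures. It lost the call without octanone replicate 2, octanone replicate 3 or vehicle replicate 2.

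The 3 MOR103 genes of the first cluster had nearly the same difference, 0.99 for Olfr1416 (SE 0.31), 0.94 for Olfr1415 (SE 0.24) and 0.95 for Olfr1414 (SE 0.31), with adjusted p of 0.0231, 0.00804 and 0.0308. The call of Olfr1416 ended without octanone replicate 2 or 4. That of Olfr1415 ended without both replicate 4 pools (0.59). Olfr1414 lost its call when octanone replicate 2 or 4, vehicle replicate 3 or 4, or both replicate 4 pools were left out, with a difference of 0.57 in the last case. Weighting the arrays also ended it (0.69).

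The sequences around the starts of Olfr1411 and Olfr1412 are shown because these neighbours of one family moved the same way by different amounts. The windows run from 250 bases before to 50 after the RefSeq gene start (GRCm38.p6, plus strand), at chr1:92596271-92596570 for Olfr1411 and chr1:92588082-92588381 for Olfr1412. They were 64.9% identical after alignment, and capitals mark the shared runs of at least 12 bases, 32 bases in all. In both windows the RefSeq start lies at an ATG. The last marked run lies in the 50 bases from that start codon on and not in front of it.
Olfr1411: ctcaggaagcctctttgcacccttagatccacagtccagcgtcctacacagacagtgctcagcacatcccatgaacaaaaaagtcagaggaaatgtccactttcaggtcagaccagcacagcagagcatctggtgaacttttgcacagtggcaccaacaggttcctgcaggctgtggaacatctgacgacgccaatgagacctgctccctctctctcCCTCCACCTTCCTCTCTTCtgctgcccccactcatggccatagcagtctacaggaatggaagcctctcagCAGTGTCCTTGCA
Olfr1412: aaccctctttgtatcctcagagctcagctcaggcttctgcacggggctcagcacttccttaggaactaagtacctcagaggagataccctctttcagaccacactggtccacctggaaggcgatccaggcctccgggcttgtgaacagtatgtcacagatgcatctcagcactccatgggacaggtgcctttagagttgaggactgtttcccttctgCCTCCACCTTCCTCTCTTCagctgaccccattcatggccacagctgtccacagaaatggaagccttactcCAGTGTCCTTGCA
Of 300 window pairs formed by the 25 receptors with a window, the 55 within a family had a median identity of 47.8% (43.4 to 79.8%) and the 245 between families one of 46.9% (38.8 to 52.3%). The most alike windows were those of Olfr1416 and Olfr1415 at 79.8%, whose differences of 0.99 and 0.94 are given above. The RefSeq start lay at an ATG in 12 of the 25 windows, and for those genes the first 250 bases lie before the start codon and not before a start of transcription.

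The second cluster was mixed, with 5 receptors called higher, 6 lower and 8 not called, and a median difference of 0.14. For comparison, 44.8% of all receptors were called higher and 25.9% lower, and 16.7% and 14% of all probe sets. Both MOR123 genes and 3 of the 6 MOR105 genes were higher. Olfr424 of MOR105 had the largest difference upwards of all 27. It read 12.64, 13.10, 12.86 and 11.75 in 2-octanone GFP+ cells and 12.98, 12.74, 13.07 and 11.70 in vehicle GFP+ cells, against 10.83, 8.87, 9.35 and 8.82 in 2-octanone GFP− cells and 10.23, 9.71, 10.03 and 8.52 in vehicle GFP− cells. No GFP+ sample overlapped a GFP− sample, and replicate 4 was again the lowest GFP+ sample in both exposures. The difference was 3.06 (SE 0.33, adjusted p = 1.46e-06).

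Olfr432 of MOR123 read 9.11, 10.25, 9.84 and 9.04 in 2-octanone GFP+ cells and 9.80, 9.22, 9.23 and 8.98 in vehicle GFP+ cells, against 7.56, 6.26, 7.30 and 6.29 in 2-octanone GFP− cells and 7.45, 7.44, 7.10 and 6.16 in vehicle GFP− cells. Its fractions stood apart, with a difference of 2.49 (SE 0.25, adjusted p = 8.14e-07). The neighbouring MOR123 gene Olfr433 read 9.43, 9.54, 9.15 and 8.67 in 2-octanone GFP+ cells and 8.94, 9.10, 9.17 and 8.32 in vehicle GFP+ cells, against 7.49, 7.10, 7.35 and 6.67 in 2-octanone GFP− cells and 7.02, 6.87, 7.66 and 6.05 in vehicle GFP− cells. It also showed no overlap, and differed by 2.02 (SE 0.21, adjusted p = 1.18e-06).

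Olfr430 and Olfr429 of MOR105 lie next to the MOR123 pair. The signal of Olfr430 was 11.90, 11.75, 11.70 and 10.50 in 2-octanone GFP+ cells and 11.73, 11.43, 11.90 and 10.39 in vehicle GFP+ cells, against 10.16, 9.16, 10.00 and 8.57 in 2-octanone GFP− cells and 10.44, 9.93, 9.97 and 7.41 in vehicle GFP− cells. The replicate 4 pools were lowest in all 4 groups, and only GFP+ cells of vehicle replicate 4 (10.39) read below a GFP− sample, the 10.44 of vehicle replicate 1. Olfr430 differed by 1.96 (SE 0.40, adjusted p = 0.00117) and Olfr429 by 1.80 (SE 0.33, adjusted p = 0.000516). The 4 receptors from Olfr433 to Olfr429 are consecutive among the 27 in chromosomal order, and all read higher in the GFP+ fraction of all 8 pools. A higher reading in all 8 pools held for 38.3% of all receptors and 13.5% of all probe sets.

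The largest differences downwards were in Olfr231 of MOR105 and Olfr1406 of MOR267. Olfr231 read 4.18, 3.95, 6.97 and 6.08 in 2-octanone GFP+ cells and 5.09, 5.68, 7.67 and 5.71 in vehicle GFP+ cells, against 10.90, 11.78, 11.71 and 10.36 in 2-octanone GFP− cells and 11.20, 11.49, 11.34 and 11.53 in vehicle GFP− cells. In GFP+ cells it was above background on 2 of 4 arrays after 2-octanone and on 3 of 4 after vehicle. The difference of −5.62 (SE 0.43, adjusted p = 3.20e-08) therefore rests in part on arrays where Olfr231 was not above background. Olfr424 lies directly beside it in the same family, and these neighbours differed in opposite directions.

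Olfr1406 read 6.69, 7.33, 8.32 and 8.60 in 2-octanone GFP+ cells and 6.01, 7.15, 6.47 and 7.34 in vehicle GFP+ cells, against 12.49, 12.65, 13.24 and 12.12 in 2-octanone GFP− cells and 12.83, 12.66, 12.92 and 12.84 in vehicle GFP− cells. All its GFP+ samples were above the background average but within the range of the single background probe sets. They were far below the GFP− samples, and the difference was −5.48 (SE 0.26, adjusted p = 3.91e-10). Its neighbour Olfr1408, of the same family, differed by −0.65 (SE 0.22, adjusted p = 0.0346). That smaller difference was below 0 in all 8 pools, and its call ended under centring, without octanone replicate 1 or 2, without vehicle replicate 1, 2 or 3, and without both replicate 1 pools.

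**Figure D2:**
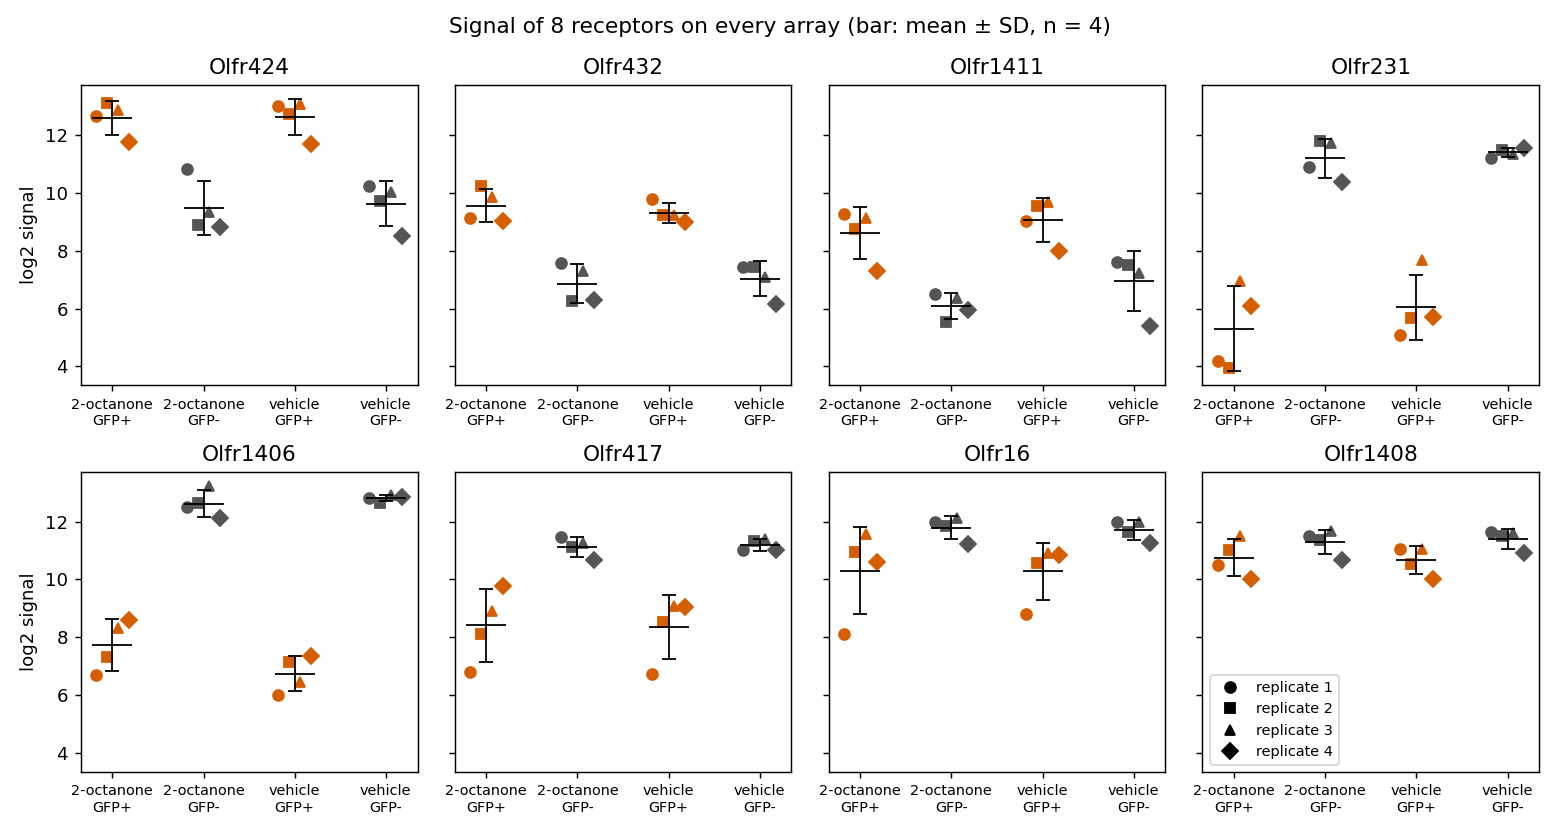
Log2 signal (vertical axis) of 8 receptors on every array, by group, with marker shapes for the replicate number and bars for the mean and SD of 4 arrays. GFP+ samples (orange) lie above GFP− samples (grey) for Olfr424 and Olfr432 and below them for Olfr231, Olfr1406 and Olfr417.

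A further pair of MOR267 genes and Olfr16 were lower in GFP+ cells. Olfr417 read 6.82, 8.11, 8.92 and 9.79 in 2-octanone GFP+ cells and 6.74, 8.54, 9.10 and 9.06 in vehicle GFP+ cells, against 11.47, 11.13, 11.26 and 10.66 in 2-octanone GFP− cells and 11.01, 11.32, 11.41 and 11.004 in vehicle GFP− cells. The fractions did not overlap, and replicate 1 was the lowest GFP+ sample in both exposures. The difference was −2.77 (SE 0.38, adjusted p = 2.37e-05). Olfr419 read 10.96, 12.47, 12.83 and 11.99 in 2-octanone GFP+ cells and 11.88, 11.67, 12.73 and 12.21 in vehicle GFP+ cells, against 13.10, 12.84, 13.12 and 12.25 in 2-octanone GFP− cells and 13.05, 13.37, 13.02 and 12.21 in vehicle GFP− cells. These overlapped, with a difference of −0.78 (SE 0.25, adjusted p = 0.0275) whose call ended under centring, without octanone replicate 1, without vehicle replicate 1 or 2, and without both replicate 1 pools.

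Olfr16 stood apart in the replicate 1 pools. The signal of Olfr16 was 8.12, 10.96, 11.56 and 10.61 in 2-octanone GFP+ cells and 8.82, 10.56, 10.93 and 10.84 in vehicle GFP+ cells, against 11.97, 11.86, 12.12 and 11.21 in 2-octanone GFP− cells and 11.98, 11.65, 11.97 and 11.26 in vehicle GFP− cells. Both low values belonged to replicate 1, while the GFP− cells of those pools did not stand apart. Over all pools Olfr16 differed by −1.45 (SE 0.41, adjusted p = 0.0133), and without both replicate 1 pools by −0.77 (adjusted p = 0.0167).

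Of the 8 genes counted in MOR267, which leave out Olfr16, 0 were called higher and 4 lower, and the other 4 were not called. Over all receptors 44.8% were called higher and 25.9% lower, and over all probe sets 16.7% and 14%. The MOR267 genes not called were Olfr418 at 0.58 (adjusted p = 0.143), Olfr218 at 0.29, Olfr1404 at 0.28 and Olfr248 at −0.09. A fit blocked on the pool called Olfr418 (adjusted p = 0.0163). Olfr248 read at background and lies next to Olfr417. Their windows are shown because the 2 genes differ in the sort (−0.09 for Olfr248 and −2.77 for Olfr417) while their windows were 63.8% identical. They lie at chr1:174368669-174368968 for Olfr417 and chr1:174390796-174391095 for Olfr248 (GRCm38.p6, plus strand), with shared runs of at least 12 bases, 30 bases in all, in capitals. The longer run begins with the ATG at the RefSeq start of Olfr417, so it does not lie in front of that gene.
Olfr417: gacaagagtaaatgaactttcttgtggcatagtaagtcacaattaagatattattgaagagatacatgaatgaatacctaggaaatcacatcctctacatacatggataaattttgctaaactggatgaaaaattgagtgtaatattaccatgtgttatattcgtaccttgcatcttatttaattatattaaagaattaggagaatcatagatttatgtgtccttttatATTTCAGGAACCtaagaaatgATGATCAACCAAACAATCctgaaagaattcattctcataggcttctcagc
Olfr248: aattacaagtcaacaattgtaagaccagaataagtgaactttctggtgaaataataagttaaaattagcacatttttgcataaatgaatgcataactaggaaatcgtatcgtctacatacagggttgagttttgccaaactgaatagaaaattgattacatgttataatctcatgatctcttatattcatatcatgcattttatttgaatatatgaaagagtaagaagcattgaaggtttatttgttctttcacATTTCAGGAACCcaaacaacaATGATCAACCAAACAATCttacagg
The remaining genes of the second cluster were also not called. Those of MOR103 were Olfr414 at 0.05 and Olfr220 at −0.25 (SE 0.19, adjusted p = 0.315), and those of MOR105 were Olfr427 at 0.21 (adjusted p = 0.0824) and Olfr420 at 0.14. Olfr220 had the second highest mean of the 27 probe sets. It read 13.15, 12.33, 12.43 and 12.53 in 2-octanone GFP+ cells and 12.43, 12.74, 12.17 and 12.61 in vehicle GFP+ cells, against 13.48, 12.85, 12.99 and 12.30 in 2-octanone GFP− cells and 12.85, 12.96, 13.03 and 11.96 in vehicle GFP− cells. The fractions of Olfr220 overlapped in both exposures.

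Homeodomain factors such as Lhx2 and Emx2 bind in front of many receptor genes, and the letters TAATTA and TAATGA were searched as homeodomain-type motifs on both strands of the windows. TAATTA is its own reverse complement, and the motifs can overlap each other only at their ends. At least 1 of them was present in 8 of 25 windows (32%), in 40.9% of the 940 windows of all receptors and in 14.1% of the 27025 windows of all genes. TAATTA was in 3 windows (12%) and TAATGA in 6 (24%). The 3 windows below belong to the receptor that differed most upwards, to Olfr16 and to a receptor with a large difference downwards. They lie at chr1:174136496-174136795 for Olfr424 (plus strand), chr1:172956518-172956817 for Olfr16 (plus strand) and chr1:173184455-173184754 for Olfr1406 (minus strand), and capitals mark a motif on either strand.
Olfr424: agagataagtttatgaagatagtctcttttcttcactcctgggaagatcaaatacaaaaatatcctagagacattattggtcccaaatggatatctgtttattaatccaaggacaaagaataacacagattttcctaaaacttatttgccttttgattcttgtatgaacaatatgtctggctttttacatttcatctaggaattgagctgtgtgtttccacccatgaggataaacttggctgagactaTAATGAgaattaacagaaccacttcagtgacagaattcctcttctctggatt
Olfr16: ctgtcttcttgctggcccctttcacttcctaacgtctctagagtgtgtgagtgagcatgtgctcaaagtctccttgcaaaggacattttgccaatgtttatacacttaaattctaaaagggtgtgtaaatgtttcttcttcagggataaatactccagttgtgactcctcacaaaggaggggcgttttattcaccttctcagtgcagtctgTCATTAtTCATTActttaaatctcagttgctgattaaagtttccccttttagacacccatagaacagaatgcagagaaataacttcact
Olfr1406: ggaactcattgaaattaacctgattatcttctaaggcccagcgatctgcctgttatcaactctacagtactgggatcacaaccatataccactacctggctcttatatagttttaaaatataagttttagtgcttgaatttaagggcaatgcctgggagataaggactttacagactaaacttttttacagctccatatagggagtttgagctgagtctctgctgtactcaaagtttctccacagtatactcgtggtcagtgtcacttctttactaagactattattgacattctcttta
The window of Olfr424 held 1 TAATGA that overlaps its start codon, that of Olfr16 held 2 on the opposite strand, and that of Olfr1406 held neither motif.

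Within each exposure the sort gave calls in both directions. After 2-octanone limma called 14 receptors (51.9%), 11 higher and 3 lower in GFP+ cells. That count was 7 (4 higher) without octanone replicate 2 and 9 (6 higher) without octanone replicate 3. Of all probe sets 15.1% were called then (5.29% higher, 9.8% lower), and of all receptors 52.4%. After vehicle it called 12 (44.4%), 9 higher and 3 lower, where 18.6% of all probe sets (7.54% higher, 11% lower) and 56.1% of all receptors were called. The 12 called after vehicle were all called after 2-octanone with the same sign, and Olfr1413 and Olfr1415 were called after 2-octanone alone. Whether the difference between the exposures itself held was tested as the change of the ratio below. With pools entered as a block, 15 were called after 2-octanone, 13 after vehicle and 20 over both, and Olfr1408 was then called in each exposure.

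Within pools the direction was the same in all 8 for 15 of the 27 receptors (55.6%), 9 of them higher (33.3%) and 6 lower (22.2%) in GFP+ cells. Of all probe sets 25.7% had the same direction in all 8 pools (13.5% higher, 12.2% lower), and of all receptors 60.2% (38.3% higher, 21.9% lower). The within-pool difference of Olfr424 ran from 1.81 to 4.23, that of Olfr432 from 1.55 to 3.99 and that of Olfr433 from 1.51 to 2.44. Olfr231 ran from −7.83 to −3.67 and Olfr1406 from −6.81 to −3.52. In the first cluster 4 of the 8 receptors were higher in all 8 pools, all of MOR208. The MOR103 genes there were higher in 6 or 7 pools, and Olfr1416 reached 2.47 at its highest and −0.31 at its lowest.

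**Figure D3:**
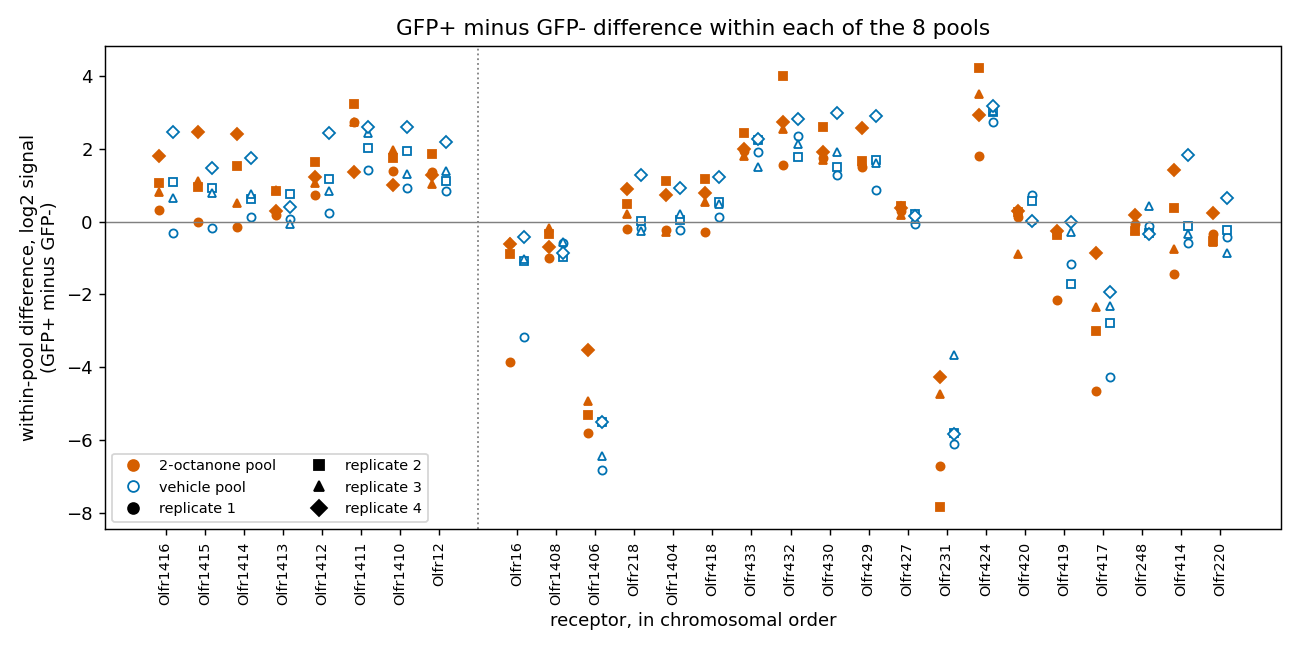
Within-pool GFP+ minus GFP− difference (log2 signal, vertical axis) of the 27 receptors in chromosomal order, with a filled orange point for each of 4 pools given 2-octanone and an open blue point for each of 4 given vehicle. The points of Olfr424, Olfr432 and Olfr433 all lie above 1.5, and those of Olfr231 and Olfr1406 all below −3.5.

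Of 18 genes that carry the receptor signal, 10 were called higher in GFP+ cells, 0 lower and 8 were not called. Their median difference was 0.33, where that of all probe sets was 0.13 and 16.7% of these were called higher and 14% lower. Within each exposure alone 4 of the 18 were called higher after 2-octanone and 5 after vehicle. Among those called were the phosphodiesterase Pde1c at 0.72 (SE 0.09, adjusted p = 1.26e-05), the chloride channel Ano2 at 0.53 (SE 0.09, adjusted p = 0.000202), the channel subunit Cngb1 at 0.56 (adjusted p = 0.0171) and the adenylyl cyclase Adcy3 at 0.37 (adjusted p = 0.0141). The receptor chaperone Rtp2 was higher by 0.45 (adjusted p = 0.0291), while its relative Rtp1 differed by 0.15 (adjusted p = 0.292). Of 14 genes tied to the choice of a receptor 1 was called higher, Adcy3, and 1 lower, Lbr at −1.85 (SE 0.23, adjusted p = 7.95e-06). Lbr encodes the lamin B receptor, a protein of the nuclear envelope. Lhx2 differed by −0.05 (adjusted p = 0.806) and Emx2 by 0.27 (adjusted p = 0.141).

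The odorant itself called no receptor of chromosome 1. In GFP+ cells, 2-octanone against vehicle gave 0 calls among the 27 receptors (0%) and 0 among all 19572 probe sets (0%), with limma's smallest adjusted p for the 27 at 1.00. At an unadjusted p under 0.05 there were 3 of the 27, 57 of all 1080 receptors and 618 of all probe sets (3.16%). In GFP− cells 0 of the 27 were called, where 1 of all probe sets was called (0.00511%). That probe set was an odorant receptor outside the 27, lower after 2-octanone. An unadjusted p under 0.05 was reached there by 2 of the 27, 3.33% of all receptors and 2.44% of all probe sets. For the change of the GFP+/GFP− ratio 0 of the 27 and 0 of all probe sets (0%) were called. There 1 of the 27 had an unadjusted p under 0.05, against 3.61% of all receptors and 2.38% of all probe sets. The intervals were wide: within a fraction the 95% confidence interval of a receptor reached 0.26 to 1.29 to either side of its difference, with a median of 0.78.

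Olfr1406 had the smallest unadjusted p in GFP+ cells. As given above, it read 6.69 to 8.60 after 2-octanone and 6.01 to 7.34 after vehicle, so the groups overlapped. The means were 7.74 ± 0.88 after 2-octanone and 6.75 ± 0.61 after vehicle (SD, n = 4 each), a difference of 0.99 (SE 0.37) that was not called (limma adjusted p = 1.00). Its within-pool difference was −5.80, −5.32, −4.92 and −3.52 in the 2-octanone pools and −6.81, −5.51, −6.45 and −5.50 in the vehicle pools, and the change of the ratio was 1.18 (SE 0.52, adjusted p = 1.00). The highest Olfr1406 signals in GFP+ cells, 8.32 and 8.60, came from octanone replicates 3 and 4. The neutrophil genes averaged 10.22 and 13.17 there, against 7.26 and 7.43 in GFP+ cells of octanone replicates 1 and 2. In vehicle GFP+ cells they averaged 7.32, 7.48, 6.86 and 8.67 (replicates 1 to 4). Olfr231 read 6.97 and 6.08 in GFP+ cells of octanone replicates 3 and 4, against 4.18 and 3.95 in replicates 1 and 2. Its highest GFP+ signal, 7.67, came from vehicle replicate 3. The part of cells carried over from the GFP− fraction was not tested.

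For Olfr12 the 2-octanone minus vehicle difference had about the same size in both fractions. It read 9.85, 9.87, 9.74 and 9.36 in 2-octanone GFP+ cells and 10.19, 10.77, 10.57 and 10.00 in vehicle GFP+ cells, which did not overlap. The difference was −0.68 (SE 0.31, limma adjusted p = 1.00). Its signal was 8.49, 8.003, 8.71 and 8.08 in 2-octanone GFP− cells and 9.35, 9.65, 9.17 and 7.82 in vehicle GFP− cells, and these overlapped through vehicle replicate 4, with a difference of −0.68 as well. Neither was called.

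Olfr248 had differences of the opposite sign at background level. The signal was 5.38, 5.20, 5.57 and 5.24 in 2-octanone GFP+ cells and 4.57, 4.90, 5.43 and 4.70 in vehicle GFP+ cells, with a difference of 0.45 (SE 0.19). The signal was 5.45, 5.44, 5.81 and 5.06 in 2-octanone GFP− cells and 4.68, 5.20, 5.002 and 5.05 in vehicle GFP− cells, with a difference of 0.46 (SE 0.19). After vehicle no array was above background for Olfr248, and neither difference was called (limma adjusted p = 1.00 in each).

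For the receptors next in order of unadjusted p, the 95% intervals of the 2-octanone differences held 0. Olfr231 differed by −0.74 in GFP+ cells and Olfr1411 by −0.85 in GFP− cells (SE 0.50). Olfr420 read 6.01, 5.61, 5.12 and 5.48 in 2-octanone GFP+ cells and 5.82, 5.77, 5.75 and 5.53 in vehicle GFP+ cells, and 5.87, 5.36, 6.01 and 5.18 in 2-octanone GFP− cells and 5.10, 5.20, 5.72 and 5.50 in vehicle GFP− cells. Its groups overlapped, and the difference in its ratio was −0.39. Olfr427 read 4.29, 4.54, 4.37 and 4.31 in 2-octanone GFP+ cells and 4.10, 4.52, 4.16 and 4.13 in vehicle GFP+ cells, and 3.93 to 4.18 in 2-octanone GFP− cells and 3.98 to 4.30 in vehicle GFP− cells, below background on every array. The difference in the ratio was 0.25 for Olfr1413. Olfr16 differed by 0.02 in GFP+ cells and 0.07 in GFP− cells.

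**Figure D4:**
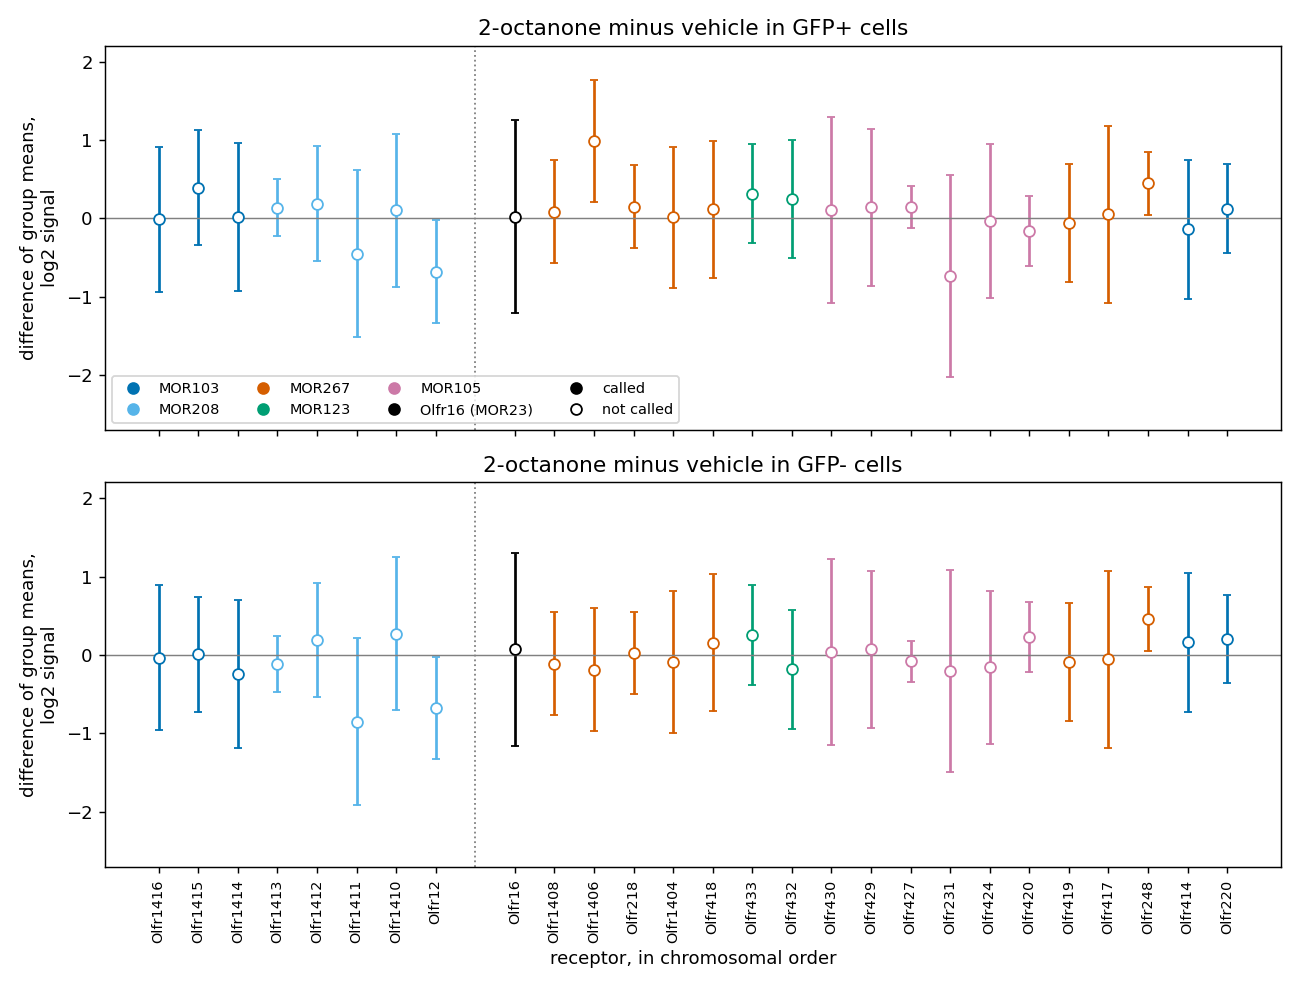
2-octanone minus vehicle difference of group means (log2 signal, vertical axis) for the 27 receptors in chromosomal order, in GFP+ cells (upper panel) and GFP− cells (lower panel), with 95% confidence intervals. No point is filled, since 0 receptors were called in either fraction, and Olfr1406 is the highest point in GFP+ cells at 0.99.

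Pools of the same number read alike in both exposures for many of the receptors. In GFP− cells replicate 4 was the lowest of 4 samples for 21 of the 27 receptors after 2-octanone and for 22 after vehicle, and for 17 in both. In GFP+ cells replicate 4 was the lowest for 12 receptors in each exposure. Replicate 1 was the lowest GFP+ sample in both exposures for 8 receptors, namely Olfr1406, Olfr1414, Olfr1415, Olfr16, Olfr218, Olfr414, Olfr417 and Olfr427. Such counts were not made over all receptors or all probe sets, so they do not show a pattern particular to chromosome 1. The Y-linked gene Eif2s3y read 4.80 and 5.31 in GFP+ and GFP− cells of octanone replicate 1 and 4.42 and 3.48 in those of vehicle replicate 1, and 11.05 to 12.63 on all other arrays. S100a5 read 13.92 and 13.22 in GFP+ cells of the replicate 4 pools given 2-octanone and vehicle, and 16.47 to 16.98 in GFP+ cells of all other pools. In GFP− cells it read 13.55 and 13.11 in the replicate 4 pools and 15.45 to 15.81 in the others. Its within-pool GFP+ minus GFP− difference was 0.38 and 0.11 in the replicate 4 pools, against 0.87 to 1.22 in the others. Whether the make-up of these pools has a part in the receptor values was not tested.

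Within a family the deviations from the group means moved together to different degrees, as a description over 16 arrays that share pools and array-wide signal. The median correlation between pairs was 0.82 in MOR208 (10 pairs), 0.73 in MOR103 (10 pairs), 0.41 in MOR267 (28 pairs) and 0.27 in MOR105 (15 pairs). Without both replicate 4 pools, which leaves 12 arrays, these medians were 0.57, 0.59, 0.46 and −0.09. The 1 pair of MOR123 correlated at 0.64 over all arrays and at 0.056 without those pools. Pairs of different families were not measured, so these values do not show a trait of families. The MOR103 genes lie in both clusters, and their lowest pair was 0.54 over all arrays and 0.02 without those pools.

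**Figure D5:**
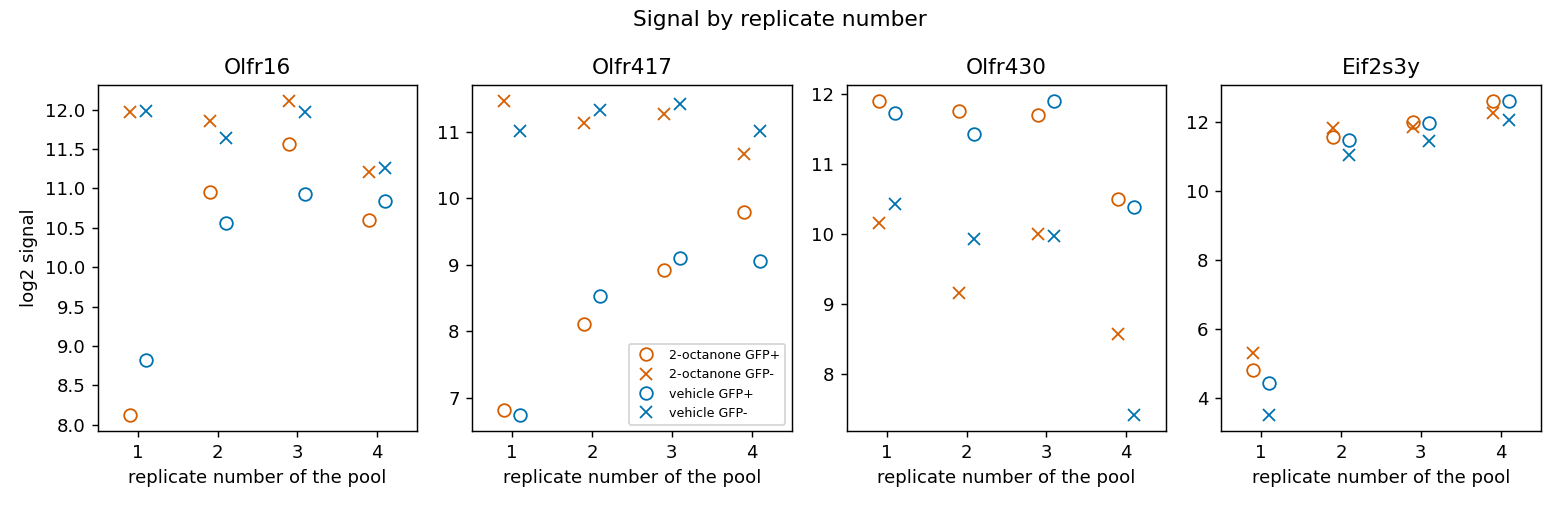
Log2 signal (vertical axis, own scale per panel) against the replicate number of the pool for Olfr16, Olfr417, Olfr430 and the Y-linked gene Eif2s3y, with circles for GFP+ and crosses for GFP− cells, orange for 2-octanone and blue for vehicle. Olfr16 and Olfr417 are lowest in GFP+ cells of replicate 1, and Olfr430 is lowest in replicate 4 in all 4 groups.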

How the data were processed

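RNA of GFP+ and GFP− cells from 8 pools of mice was measured on 16 arrays. The authors deposited a table of 28846 probe sets, made with Affymetrix Expression Console per the submitters' processing notes. The authors' deposited values were read as normalised log2 signals from their range of 2.13 to 18.99; the base of the logarithm and the way of normalising are not given in the sources used here. Genes were named from the platform annotation and a RefSeq gene table (GRCm38.p6), in which all 27 receptors were found. Background correction cannot be redone on these values, and the number of arrays limits the precision.

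All 19572 probe sets that name 1 gene entered a limma fit of the 4 group means (limma 3.58.1, lmFit then eBayes, R 4.3.3; 12 residual degrees of freedom, prior 4.19). Tests were two-sided, and p was adjusted by Benjamini-Hochberg over all 19572; a gene was called under 0.05. The script was tested on simulated data. The rule for named receptors took the 5 with the largest called difference in each direction of the sort, the 4 with the smallest p for 2-octanone in each fraction and for the ratio, the 3 with the highest mean, and Olfr16. The members, lists and rule were chosen with earlier results of these data known. The motifs, the window pairs and the genes Eif2s3y and Lbr were picked after values were seen. Windows were aligned with Biopython 1.88 (RefSeq GRCm38.p6), and Olfr220 and Olfr231 have no window here.

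The pool pairs its fractions, since per the labels both come from its 3 mice. Across all probe sets the residuals of the 2 fractions of a pool correlated at 0.26, −0.0049, 0.32 and 0.46 after 2-octanone and at 0.086, 0.22, 0.30 and 0.44 after vehicle (replicates 1 to 4). The residuals of same-numbered pools of the exposures correlated at 0.19, 0.17, 0.26 and 0.43 in GFP+ cells and at 0.34, −0.062, 0.35 and 0.52 in GFP− cells. Those of differently numbered pools correlated at −0.28 to 0.089 in GFP+ cells and at −0.56 to 0.34 in GFP− cells.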

Additional observations from a re-analysis of the deposited data

Results flagged for a closer look

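In 12 of 108 groups of 4 samples 1 value lay far from the other 3 (Dixon's test at its 95% value), where chance gives about 1 in 20 groups (5%). The groups share arrays and so are not independent, and no such count was made over all receptors or all probe sets. Of the 12, 10 came from replicate 4 pools and were lower than the rest of their group in all but 1 case.

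In GFP− cells of vehicle replicate 4, low values were read for Olfr1404 (9.67, others 11.21 to 11.43), Olfr1410 (8.40, others 10.60 to 10.80), Olfr1416 (9.13, others 11.28 to 11.51), Olfr220 (11.96, others 12.85 to 13.03) and Olfr418 (9.37, others 10.90 to 11.06). The same array was low for Olfr429 (6.02, others 8.12 to 8.32) and Olfr430 (7.41, others 9.93 to 10.44). Octanone replicate 4 was low for Olfr218 in GFP− cells (8.24, others 9.13 to 9.28) and for Olfr430 in GFP+ cells (10.50, others 11.70 to 11.90). Vehicle replicate 4 was high for Olfr218 in GFP+ cells (9.53, others 9.01 to 9.04). The other values came from replicate 2 pools: Olfr1410 was low in GFP− cells after 2-octanone (9.70, others 10.58 to 10.62), and Olfr427 was high in GFP+ cells after vehicle (4.52, others 4.10 to 4.16), below background.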

How the results depend on the processing

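Counts of called receptors stayed within 1.5 times in all comparisons and alternatives except the sort after 2-octanone, where leaving out 1 pool gave 7 (without octanone replicate 2) to 15 calls, against 14. Without octanone replicate 3 it was 9. Over both exposures leaving out 1 pool gave 15 to 18 calls, against 19, and 17 with the replicate 1 pools left out, a setting that was added once the data had been seen. The pool as a replicate block gave 20, 15 and 13 calls over both exposures, after 2-octanone and after vehicle, and 0 for 2-octanone in either fraction (replicate number as the block) and for the ratio. Fitting only the arrays compared gives no separate value for the sort over both exposures and for the ratio, and no receptor had a second probe set to try.

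The sign changed for 3 receptors that were not called. Centring each array on its median gave 0.19 for Olfr248 and 0.023 for Olfr220. Olfr414 was at −0.27 with array weights and −0.48 without both replicate 4 pools, and leaving out 1 pool took it from −0.22 to 0.28, below 0 without octanone replicate 2 (−0.03) or 4 (−0.21) and vehicle replicate 4 (−0.22). The cause was not tested. Single receptors lost their call in 24 cases over 6 receptors, all named above, and gained it in 8 over 5.

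Signal close to background limits Olfr427, Olfr248, Olfr420 and Olfr231. With 4 arrays per group, even the largest 2-octanone difference of the 27 receptors in GFP+ cells (0.99 for Olfr1406) did not pass the adjusted threshold.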

Other observations

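Olfr421-ps1, a pseudogene of chromosome 1 that is not among the 27 receptors, read 4.13, 5.47, 4.26 and 4.28 in 2-octanone GFP+ cells and 4.27, 4.10, 3.92 and 4.08 in vehicle GFP+ cells. It read 4.01, 3.62, 4.29 and 4.64 in 2-octanone GFP− cells and 3.24, 4.27, 3.59 and 3.54 in vehicle GFP− cells. The difference between the fractions was 0.42 (SE 0.20) and was not called (limma adjusted p = 0.127). All values were below the average of the background probe sets.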
